A study of Mus musculus with 4 samples.

Results

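Replication-dependent histone genes encode the core histones H2A, H2B, H3 and H4 and the linker histone H1 that package newly copied DNA. They were taken as the protein-coding rows of the gene table whose GENCODE mouse release M21 symbol begins with Hist1h, Hist2h, Hist3h or Hist4. Of the 47633 rows, 65 met this rule: 6 H1, 18 H2A, 16 H2B, 12 H3 and 13 H4 genes. The release holds 67 such protein-coding symbols. Hist1h2bm and Hist1h2bh did not match a row by identifier and are not analysed here, and 3 pseudogenes with such symbols were left out. In build mm10, 52 of the genes lie on chromosome 13 between 21715763 and 23934851, 10 on chromosome 3, 2 on chromosome 11 and 1 on chromosome 6.

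RNA was sequenced from mouse embryonic stem (ES) cells of strain 129S2/SvPas, which are pluripotent cells kept undifferentiated by leukaemia inhibitory factor (LIF). The ES cells (2 libraries) grew with LIF on feeder cells, which were fibroblasts of C57/BL6 embryos whose division had been stopped with mitomycin C. One library came from cells kept without LIF for 2 days, and 1, labelled embryoid body, from cells kept without LIF for 5 days; an embryoid body is an aggregate of differentiating ES cells. No genotype change or other agent is given for any group, the labels do not say whether the ES libraries came from separate cultures, and whether feeders were still present without LIF is not given. The 2 derived groups had 1 library each, so they were compared with the ES pair and never tested against each other. An exact permutation test of 2 libraries against 1 cannot give a p below 0.333.

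The labels were checked against markers. The 10 ES cell markers summed to 2406 and 2399.9 FPKM (fragments per kilobase of transcript, scaled to the fragments of the library) in the ES libraries, 2512 after 2 days without LIF and 2861 with the embryoid body label. Without Dppa5a the sums were 1845 and 1823 FPKM in the ES libraries, 1707 and 1725, so the higher sums rest on that gene. After LIF withdrawal 3 of the 10 lay above both ES libraries and 6 below both. In the library labelled embryoid body 5 lay above both and 5 below both. Dppa5a, expressed in pluripotent cells, was at 1136 FPKM there against 561 and 577, Pou5f1, the pluripotency factor Oct4, at 461 against 489 and 472, and Lin28a, an RNA-binding protein of ES cells, at 32.1 against 76.2 and 77.3. The 18 fibroblast markers summed to 574 and 581 FPKM in the ES libraries, 1038 after LIF withdrawal and 428 with the embryoid body label. After LIF withdrawal, all 17 of the fibroblast markers that were tested lay above both ES libraries and 6 were called higher. With the embryoid body label, 7 lay above and 8 below. Acta2, smooth muscle actin, was at 1.06 FPKM there against 82.8 and 88.7 in ES cells, whereas Dcn was at 11.1 against 0.695 and 0.664. By at least 2-fold (on FPKM + 1), 4 of these markers lay above both ES libraries and 3 below both. The lower sum therefore does not describe the list as a whole. No marker of either list was at 0 in every library, and the part of other cells in the histone values was not tested. In bulk RNA, fewer cells of a type and less RNA per cell cannot be told apart.

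Transcription of these genes, and the cutting and stability of their mRNAs, are tied to S phase, when DNA is copied. Their mRNAs as a rule carry no poly(A) tail: the transcript is cut a few bases after a short stem-loop, guided by the U7 small nuclear RNA, and the protein SLBP binds that stem-loop and sees the mRNA through translation and decay. Libraries of total RNA, as used here, can hold such mRNAs, which selection on poly(A) removes. ES cells have a short cycle with much of it in S phase and are known for abundant histone mRNA. Each core histone class is made by many gene copies, several of which share most of their sequence, whereas the linker histone genes differ more from one another.

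The stem-loop is the sequence these genes share, and its form separates the H4 genes from the other classes. The transcripts of the release were searched for a stem of 6 base pairs that begins with GG and is closed by a loop of 4 bases beginning with TT. It was present in 42 of the 65 genes, and in 42 of the 54 whose transcript holds more than the coding sequence. In 11 genes the annotated transcript was the coding sequence alone, so no stem-loop could be seen. Among the other protein-coding genes 109 of 21886 had such a sequence (0.498%). The 6 forms found are given 5′ to 3′ as DNA letters, with the loop in capitals.
Form of 24 genes (3 H1, 10 H2A, 6 H2B, 5 H3): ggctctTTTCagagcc
Form of 6 genes (1 H1, 2 H2B, 3 H3): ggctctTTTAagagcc
Form of 1 gene (Hist2h2ac): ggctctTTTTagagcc
Form of 7 genes (all H4): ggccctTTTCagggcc
Form of 2 genes (Hist1h4i and Hist2h4): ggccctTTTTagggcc
Form of 2 genes (Hist1h4j and Hist1h4b): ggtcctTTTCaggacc
All 11 H4 genes with a stem-loop had one of the last 3 stems, and none of the 31 genes of the other classes did.

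Promoters were read to describe what the genes of a class share. Those of 59 of the 65 genes were matched in RefSeq (GRCm38.p6). Motifs were searched in the 250 bases before the start: TATAAA on the gene's strand, and CCAAT, the octamer ATTTGCAT and AAACACA on both strands. None of the 4 contains another. In 12 pairs an H2A and an H2B gene start 176 to 306 nt apart on opposite strands. Their searched bases can overlap, so 1 site can count in both classes, as the octamer of Hist1h2ae and Hist1h2bg does. CCAAT, the box bound by NF-Y, was in all 5 H1, all 18 H2A and all 14 H2B promoters, in 8 of 10 H3 and in 3 of 12 H4 promoters, against 33.8% of all 32851 promoters. The octamer, bound by Oct proteins and known from H2B promoters, was in 7 of 18 H2A and 5 of 14 H2B promoters and in no H1, H3 or H4 promoter (1.601% of all). AAACACA, known as the H1 box, was in 4 of 5 H1 promoters (6.25% of all), and TATAAA was in 23 of the 59 (7.59% of all). One promoter of each of 4 classes is shown, with a second for H4 that holds none of the 4 motifs in its 250 bases. They are the 150 bases before the start, 5′ to 3′ on the gene's strand, with the motifs in capitals (ATTGG is CCAAT on the other strand); the TATAAA of Hist1h3d lies outside the bases shown.
Hist1h1b, chr13:21780626-21780775, minus strand: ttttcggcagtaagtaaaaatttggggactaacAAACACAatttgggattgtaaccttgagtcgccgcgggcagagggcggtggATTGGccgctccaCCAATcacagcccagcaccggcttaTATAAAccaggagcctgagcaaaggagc
Hist1h2bb, chr13:23746584-23746733, plus strand: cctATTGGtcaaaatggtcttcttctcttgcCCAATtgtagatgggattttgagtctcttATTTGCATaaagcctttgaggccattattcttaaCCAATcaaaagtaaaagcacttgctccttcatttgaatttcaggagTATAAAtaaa
Hist1h3d, chr13:23575613-23575762, plus strand: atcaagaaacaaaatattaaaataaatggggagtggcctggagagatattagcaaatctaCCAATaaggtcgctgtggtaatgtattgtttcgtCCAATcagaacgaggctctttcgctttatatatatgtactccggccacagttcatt
Hist1h4d, chr13:23581418-23581567, plus strand: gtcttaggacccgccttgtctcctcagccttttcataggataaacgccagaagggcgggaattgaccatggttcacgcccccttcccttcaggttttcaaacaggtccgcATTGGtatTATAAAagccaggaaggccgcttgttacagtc
Hist1h4h, chr13:23530894-23531043, plus strand: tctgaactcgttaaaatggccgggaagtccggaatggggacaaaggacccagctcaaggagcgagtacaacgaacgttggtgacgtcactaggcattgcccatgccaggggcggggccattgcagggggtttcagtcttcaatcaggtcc
These matches describe the letters and are not measured binding.

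Some properties of the values bear on these short, repeated genes. First, the gene models run from 312 to 7425 nt (median 539), and 21 of the 42 genes with a stem-loop have more than 100 nt annotated after it, up to 4884 nt in Hist1h1d; since FPKM divides by length, levels of different genes depend on these models. In short models the deposited FPKM divided by less than the full length. The most common low value among single-transcript genes within 1.5% of 400 nt, read as a single fragment, was 0.159 and 0.171 FPKM in the ES libraries, 0.342 after LIF withdrawal and 0.183 with the embryoid body label. Depths estimated from genes of at least 3000 nt were 31.5, 26.4, 18.1 and 26.4 M fragments (M, mega), in the order ES 1, ES 2, LIF-withdrawn and labelled embryoid body. With these depths the steps correspond to 199.6, 221, 162 and 207 nt. On that scale 100 FPKM was about 628, 586, 293 and 546 fragments, and 3 fragments were 0.478, 0.512, 1.02 and 0.549 FPKM. Such floors describe the counting error alone.

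Second, copies limit how reads are assigned. In 9 genes under 10% of the 50-base words of the transcript are found in no other gene, and 7 of these 9 were under 5 FPKM in ES cells. Genes that overlap a histone gene on either strand were left out of this count, here and below. Words called unique can therefore still lie in an overlapping gene model. The 6 genes that share at least 90% of their words with 1 other gene all had means of 2.60 FPKM or less. The median was 112 FPKM over the 56 genes with at least 10% unique words. Of the 6, Hist1h2bq and Hist1h2br form 1 pair, and Hist1h2ao and Hist1h2ap another. Hist2h2aa2 shares its words with Hist2h2aa1, and Hist2h2aa1 shares most with Gm20632, the gene opposite Hist2h2aa2. The values of such copies are uncertain.

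Last, in the library made after LIF withdrawal several gene models on the opposite strand of histone genes held signal that the other libraries lacked. Every H2A gene, and Hist2h2bb, Hist2h3b and Hist1h4b, overlap an annotated gene on the other strand. Of these 22 opposite-strand genes 13 were above 0 FPKM after LIF withdrawal and 4 in each other library, and 11 against 0 were above 10 FPKM. Gm20628, opposite Hist2h2bb and Hist2h3b, was at 0.129, 0.234 and 0.235 FPKM in ES 1, ES 2 and the library labelled embryoid body and at 110.8 after LIF withdrawal, about 13, 20, 20 and 6433 fragments. 4930558J22Rik, opposite Hist1h4b, was at 34.5 FPKM after LIF withdrawal and at most 0.197 elsewhere. Among 17 opposite-strand models annotated as miRNAs, 8 were above 0 in the LIF-withdrawn library and 0 in the others. In 7 of them, all with models of 138.0 nt, those values were whole multiples of 61.4 FPKM (within 6.51e-06), from 1 to 11, so up to 676 FPKM there may stand for few fragments. Whether the kit or the counting kept the strand is not given in the sources used here. The part of this signal in the histone values was not tested, and each class is therefore also given without the genes that have an opposite-strand neighbour, except H2A, where none is left.

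In ES cells the H4 genes held the highest summed level and the H2A genes the lowest. The sums were 3660.0 ± 120 FPKM for H4 (SD, n = 2 for this and the following), 2787 ± 119 for H2B, 1463 ± 43.4 for H3, 1347 ± 56.9 for H1 and 1008 ± 62.3 for H2A. The ES values of no 2 classes overlapped, and the closest were H3 at 1494 and 1432 FPKM and H1 at 1387 and 1307. Histone genes together made up 2.29% and 2.15% of the FPKM of all protein-coding genes in ES 1 and ES 2. Of the 65 genes, 54 were at 5 FPKM or more, 29 at 100 FPKM or more, and 1 (Hist2h2be) was under 1 FPKM in every library.

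The 3 highest genes carried most of each class except H3. Hist1h4d was the highest H4 gene at 939 ± 3.38 FPKM, followed by Hist1h4h at 506 ± 2.70 and Hist1h4b at 481 ± 108, and these 3 made 52.6% of the H4 sum. Hist2h2bb led H2B at 1083 ± 39.9 FPKM, Hist1h2bg and Hist1h2bf followed at 387 ± 10.8 and 264 ± 21.6, and the 3 together made 62.2%. Hist2h2bb is a model of 381 nt that also overlaps the lincRNA Gm42743 on its own strand, so its level rests on a short stretch. Hist1h2ak (412 ± 13.1 FPKM) alone made 40.8% of H2A, ahead of Hist1h2af (169 ± 16.2) and Hist1h2ab (124 ± 0.0898). In H3 the leading genes were closer together, with Hist1h3g at 244 ± 0.377 FPKM, Hist1h3d at 200.2 ± 1.29 and Hist1h3e at 185 ± 6.55, or 43.0% of the class. The linker histones were led by Hist1h1a (H1.1), Hist1h1b (H1.5) and Hist1h1d (H1.3) at 398 ± 19.1, 394 ± 20.1 and 365 ± 5.97 FPKM, whereas Hist1h1e (H1.4) and Hist1h1c (H1.2) were at 89.5 ± 12.3 and 88.6 ± 0.211.

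**Figure D1:**
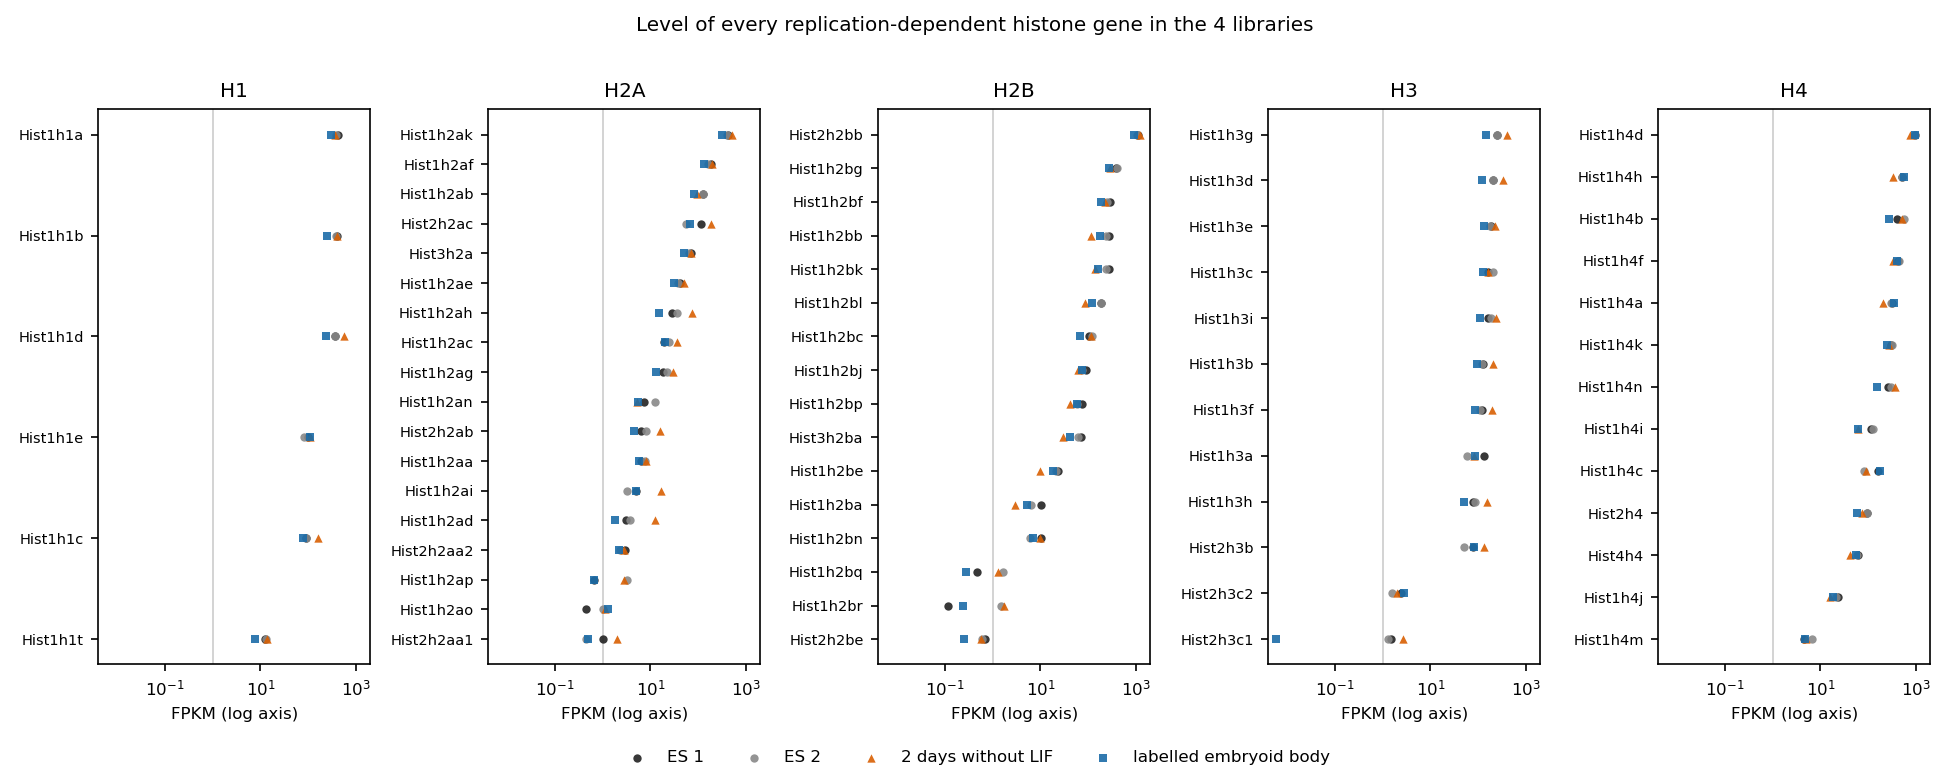
FPKM on a log axis of each of the 65 genes, 1 panel a class, sorted by the ES mean; black and grey circles are the 2 ES libraries, orange triangles the library after 2 days without LIF, blue squares the library labelled embryoid body, and the grey line marks 1 FPKM. Orange triangles lie right of the circles for most H3 and H2A genes and left of them for most H2B and H4 genes, and 54 genes lie at 5 FPKM or more in ES cells.

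The 2 ES libraries differed by at least 1.5-fold in 8 of the 64 tested histone genes (12.5%), against 6.56% of all tested genes. Of these 8, 5 were at 5 FPKM or more. Hist2h2ac was at 117 and 54.8 FPKM in ES 1 and ES 2, Hist1h3a, an H3.1 gene, at 133 and 57.9, and Hist1h4c at 156 and 82.6. Values of these genes in the derived libraries (182 and 67.2 for Hist2h2ac, 81.3 and 84.0 for Hist1h3a, 91.6 and 176 for Hist1h4c, after LIF withdrawal and with the embryoid body label) lay within the ES pair, apart from Hist2h2ac after LIF withdrawal and Hist1h4c with the embryoid body label, which lay above both. Neither had an adjusted p under 0.05 by limma (0.370 and 0.577). Of the 8 genes, 4 were higher in ES 1 and 4 in ES 2. RNAs made without a poly(A) tail also differed between the ES libraries: the 14 RNAs of that kind summed to 38058 and 25382 FPKM in the ES pair, 20826 after LIF withdrawal and 60164 with the embryoid body label, with 4 of them at 0 in all libraries. Rmrp, the RNA of the mitochondrial RNA-processing endoribonuclease, was at 18785, 13235, 6965 and 27023 FPKM in that order, and Rn7sk, the RNA that restrains elongation by RNA polymerase II, at 14348, 8921, 11256 and 25999.9. The part of this in the histone values was not tested.

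After 2 days without LIF the histone classes lay on both sides of the ES level while their total was 1.01 times the ES mean. H3 summed to 2104 FPKM against 1494 and 1432 in the ES libraries (1.44 times the ES mean), H2A to 1299 against 1052 and 964 (1.29 times) and H1 to 1619 against 1387 and 1307 (1.20 times). H2B summed to 2333 against 2871 and 2702 (0.837 times) and H4 to 3043 against 3575 and 3745 (0.831 times). Each of the 5 sums lay outside the ES pair, 3 above and 2 below. Without the genes that have an opposite-strand neighbour the ratio was 1.41 for H3, 0.659 for H2B, 0.799 for H4; no H1 gene has one. Over genes with at least 50% unique 50-base words it was 1.59 for H2A, 1.30 for H3, 0.909 for H2B and 0.730 for H4. The H2A genes of this set summed to 259 and 195 FPKM in the ES libraries and 362 after LIF withdrawal. Hist2h2ac, whose ES values are far apart, held 117, 54.8 and 182 FPKM of these sums, so the 1.59 leans on that gene. The direction of each class was the same under both other scalings of the libraries.

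**Figure D2:**
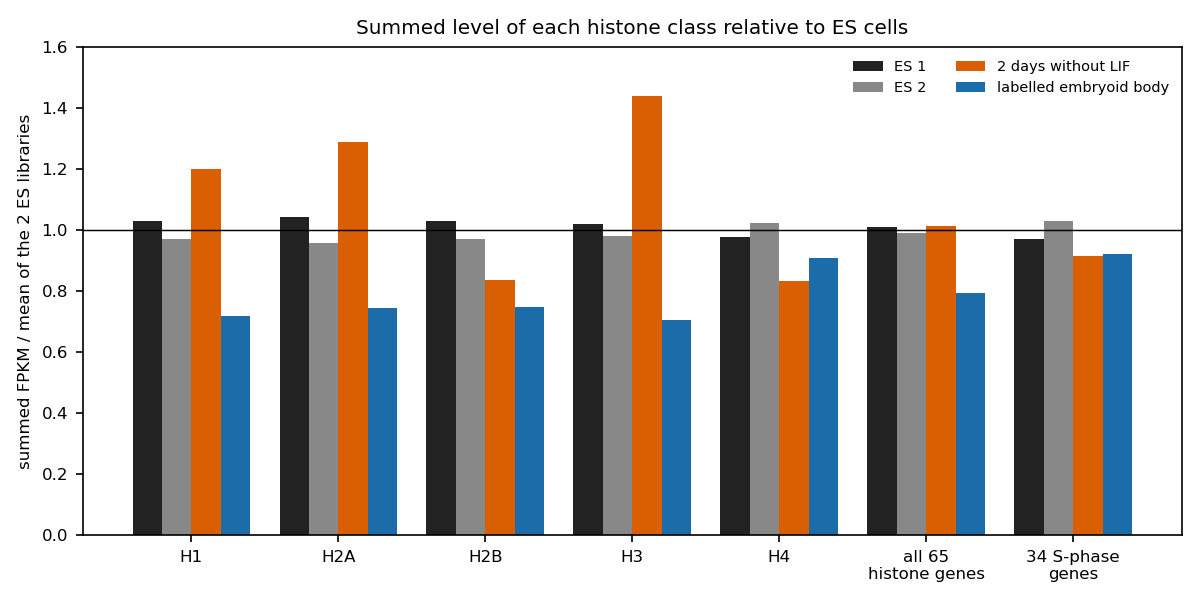
Summed FPKM of each histone class, of all 65 histone genes and of 34 S-phase genes in each library, divided by the mean of the 2 ES libraries; bars start at 0, the line marks the ES mean, and each bar is 1 library. After 2 days without LIF H1, H2A and H3 reach 1.20, 1.29 and 1.44 and H2B and H4 0.837 and 0.831, and with the embryoid body label all 5 classes lie between 0.705 and 0.907.

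In single genes, 1 of the 64 tested histone genes passed the limma test after LIF withdrawal (Benjamini-Hochberg adjusted p under 0.05 and at least 1 on the log2 scale), and it fell. That gene was Hist1h2bl, at 184 and 185 FPKM in the ES libraries and 87.5 without LIF. Of its 50-base words 17.2% are unique, so its level may hold reads of other H2B genes. Its log2 change was -1.07 (SE 0.02, adjusted p = 0.0158). Among all 15676 genes tested, 7.32% were called higher and 0.357% lower, and 26 of the 64 histone genes were at an unadjusted p under 0.05, near the 37.2% of all genes. The adjusted p alone, without the size limit, was met by 3 histone genes above the ES level (Hist1h1c, Hist1h3g and Hist1h3d; 8.87% of all genes) and 3 below it (Hist1h2ab, Hist1h2bl and Hist2h4; 1.15% of all genes). By the size rule without a test, 3 genes (Hist1h2ah, Hist1h2ai and Hist1h2ad) were at least 2-fold above both ES libraries. Another 3 (Hist1h2bb, Hist1h2bl and Hist1h2be) were at least 2-fold below both. The shares by this rule were 8.84% and 0.836% of all tested genes, and 3.77% and 0.494% of the protein-coding ones. The lone library is assumed to vary like the ES pair, the only source of error, with 1 residual degree of freedom. limma draws the variance of each gene toward a trend over all genes in the fit. The error of a gene with near-equal ES values thus comes largely from other genes. Fitted over protein-coding genes only, the test called 3 histone genes higher (the same 3 H2A genes) and 4 lower (Hist1h2be, Hist3h2ba, Hist1h2bb and Hist1h2bl), against 3.97% and 0.574% of the genes in that fit. Over those with no opposite-strand gene it called these 4 lower, against 0.718% of the genes in that fit.

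The split by class appears in the counts. Of all 64 tested genes 30 lay above both ES libraries and 23 below both, close to the 48.4% and 36.6% of all tested genes. Over the 43 tested genes with no opposite-strand gene the order was reversed, with 14 above both and 21 below both and a median log2 change of -0.15. By class, 9 of 12 H3, 14 of 18 H2A and 4 of 6 H1 genes lay above both, and 10 of 15 H2B and 9 of 13 H4 genes below both. The median log2 change was 0.65 for H3, 0.45 for H2A, 0.19 for H1, -0.43 for H2B and -0.38 for H4, beside 0.09 for all 64 and 0.04 for all tested genes. The class counts and medians are descriptions without a test.

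H3 genes form the centre of the nucleosome with H4. Hist1h3g, which encodes the H3.1 form, was at 245 and 244 FPKM in the ES libraries and 390.4 after LIF withdrawal, a log2 difference of 0.67 (SE 0.03, adjusted p = 0.0374). Hist1h3d, which encodes the H3.2 form, was at 199 and 201 FPKM and then 328 (0.71 ± 0.03 SE, adjusted p = 0.0336). Both ES pairs were within 2 FPKM and the LIF-withdrawn values lay far outside them, but under the size limit. Hist1h3h (77.3 and 84.7 FPKM, then 155), Hist1h3b (128 and 118, then 205) and Hist1h3f (119.6 and 110.3, then 198) were also above both ES libraries, at limma adjusted p between 0.0744 and 0.0845. Under 10% of the 50-base words of Hist1h3h are unique. Hist1h3c was the 1 H3 gene below both ES libraries (163 and 199, then 159). The sums of the H3.1 genes (4 genes) and the H3.2 genes (8 genes) were 1.45 and 1.43 times the ES mean.

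The linker histones bind the DNA between nucleosomes. Hist1h1c was at 88.5 and 88.8 FPKM in the ES libraries and 158 after LIF withdrawal, with an adjusted p of 0.0202 and a log2 difference of 0.83 (SE 0.02). Hist1h1d went from 369 and 360.5 to 574 FPKM (log2 difference 0.65, SE 0.04, adjusted p = 0.0566). The genes of the class with the highest FPKM did not follow them. Hist1h1a was lower than both ES libraries (411 and 385, then 357). Hist1h1b lay between the ES libraries (408 and 379, then 407). Their models are 741 and 743 nt long, against 7425 nt for Hist1h1d, so this order by FPKM depends on the models. Hist1h1t lay above both ES libraries and Hist1h1e did too (98.1 and 80.8 FPKM, then 109).

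H2A and H2B pair in the nucleosome, and their genes lay on opposite sides of the ES level. In H2A, Hist1h2ah was at 28.2 and 35.5 FPKM in ES cells and 75.1 after LIF withdrawal, and the low genes Hist1h2ai (4.96 and 3.17, then 16.6) and Hist1h2ad (3.096 and 3.81, then 12.3) were also at least 2-fold above. Under 10% of the 50-base words of Hist1h2ah and Hist1h2ai are unique, so these values may hold reads of other H2A genes. Hist1h2ak, the most abundant, was at 421 and 403 FPKM and then 499 (1.21 times the ES mean). Hist1h2ab lay below both ES libraries (124 and 124, then 93.7) with an adjusted p of 0.0461 and a log2 difference of -0.40, so the class was not uniform. In H2B, Hist1h2bb was at 270.1 and 237 FPKM and then 116, Hist1h2bk at 267 and 234 and then 136, Hist3h2ba at 68.8 and 59.7 and then 30.1, and Hist1h2be at 23.3 and 20.7 and then 9.83. Their log2 differences were between -1.12 and -0.87 with adjusted p between 0.0795 and 0.102. Of the 50-base words of Hist1h2bk 25.8% are unique. Hist2h2bb ran the other way at 1111 and 1055 FPKM and then 1209.8. It is the H2B gene opposite Gm20628, and without it the H2B sum was 0.659 times the ES mean in place of 0.837.

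In H4, Hist1h4h was at 504 and 508 FPKM in the ES libraries and 323 after LIF withdrawal (log2 difference -0.64, SE 0.04, adjusted p = 0.0578). Hist1h4a went from 308 and 303 to 206 FPKM and Hist1h4i from 115 and 127 to 61.6. Hist2h4 was at 96.2, 95.8 and 72.2 FPKM with an adjusted p of 0.0448 and a log2 difference of -0.41. Hist1h4n was the 1 H4 gene above both ES libraries (255 and 294, then 365), and Hist1h4b, the gene opposite 4930558J22Rik, lay between them (405 and 558, then 504).

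**Figure D3:**
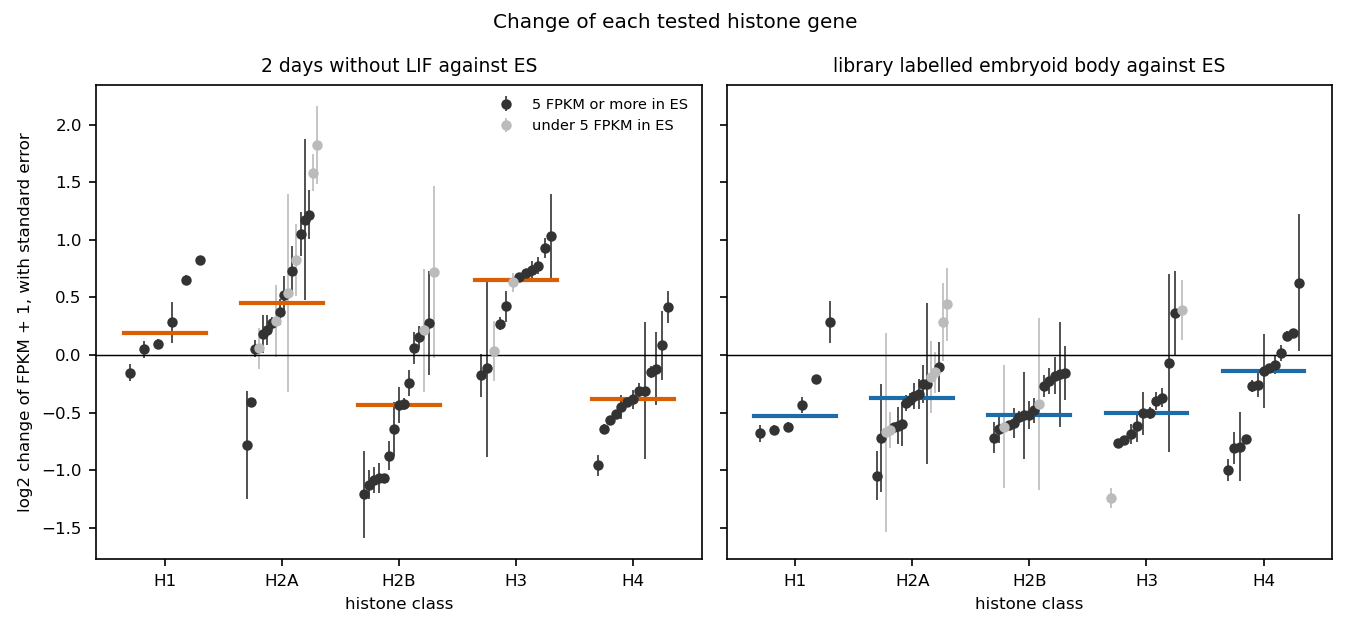
Log2 change of FPKM + 1 against the ES mean for each of the 64 tested histone genes, by class, with the standard error of the limma fit, for 2 days without LIF (left) and the library labelled embryoid body (right); grey points are genes under 5 FPKM in ES cells and thick lines are class medians. On the left the medians are 0.65 for H3 and 0.45 for H2A against -0.43 for H2B and -0.38 for H4, and on the right all 5 medians are below 0, from -0.53 to -0.14.

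Ratios between classes within a library do not depend on how the libraries are scaled. The summed H3 FPKM was 0.520 and 0.530 times the H2B sum in the ES libraries, 0.902 times after LIF withdrawal and 0.495 times with the embryoid body label. H3 to H4 was 0.418, 0.383, 0.692 and 0.311, and H2A to H2B 0.367, 0.357, 0.557 and 0.3602 in the same order. The LIF-withdrawn library stood above the other 3 in each of these 3 ratios. The H3 to H2B ratio was also highest there without the genes that have an opposite-strand neighbour (0.805, 0.838, 1.76 and 0.803) and over genes with at least 50% unique words (0.302, 0.292, 0.424 and 0.273). H2B to H4 showed no such order: it was 0.803, 0.722, 0.767 and 0.627, and the LIF-withdrawn value was below the ES pair without the genes that have an opposite-strand neighbour (0.442) and above it over genes with at least 50% unique words (0.957).

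**Figure D4:**
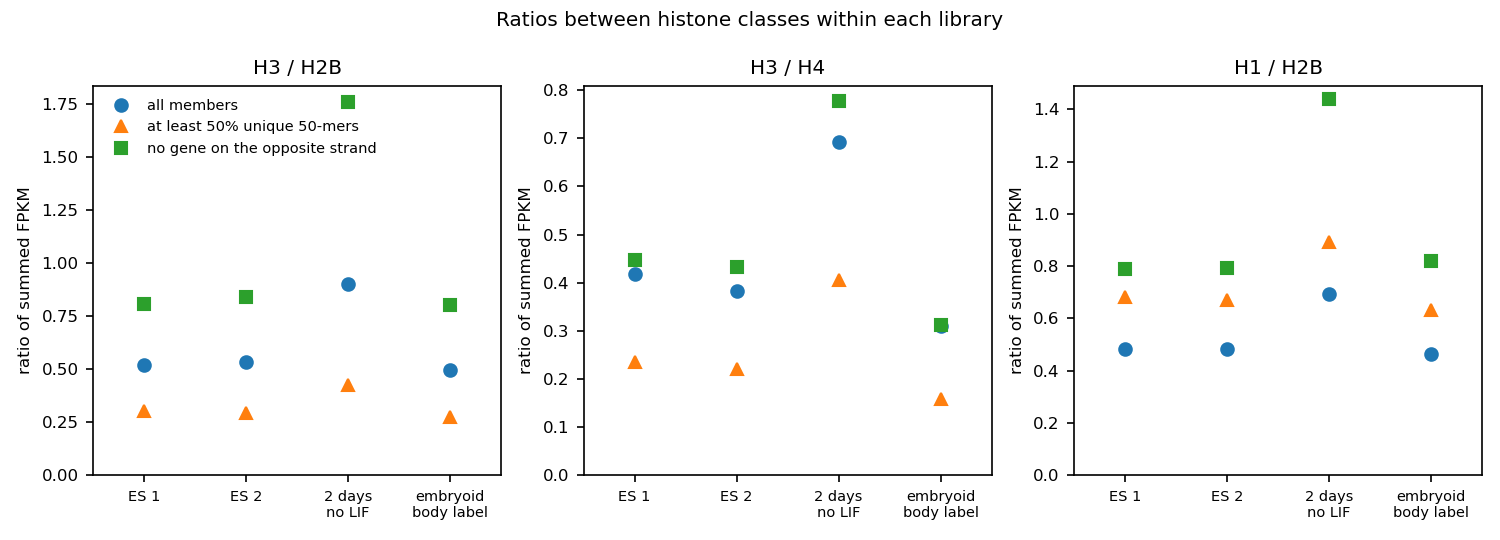
Ratio of the summed FPKM of 2 histone classes in each library, for H3 to H2B, H3 to H4 and H1 to H2B; circles use all genes, triangles genes with at least 50% unique 50-base words, squares genes with no gene on the opposite strand, and each axis starts at 0. In each panel and for each set of genes the point for 2 days without LIF is the highest, such as 0.902 for H3 to H2B over all genes against 0.495 to 0.530 in the other libraries.

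H2A and H2B genes were also compared within neighbouring pairs. Of the H2A genes, 12 stand head to head with an H2B gene, with starts 176 to 306 nt apart, so that both genes of a pair share the sequence between them. Both genes were at 5 FPKM or more in ES cells in 7 pairs. In 5 of these 7 the log2 difference after LIF withdrawal was higher for the H2A gene than for the H2B gene, and in 4 it was positive for H2A and negative for H2B. Hist1h2ah and Hist1h2bk, 302 nt apart, had differences of 1.22 and -0.87, and Hist1h2ae and Hist1h2bg, 176 nt apart, 0.37 and -0.42. The pair Hist1h2ak and Hist1h2bn had the same difference (0.28 and 0.28), and in Hist1h2an and Hist1h2bp both were negative (-0.78 and -0.64). With the embryoid body label both genes were lower than the ES mean in all 7 pairs, and the H2A gene had the higher value in 3. The pairs share libraries and are not replicates, and no test was made over them.

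**Figure D5:**
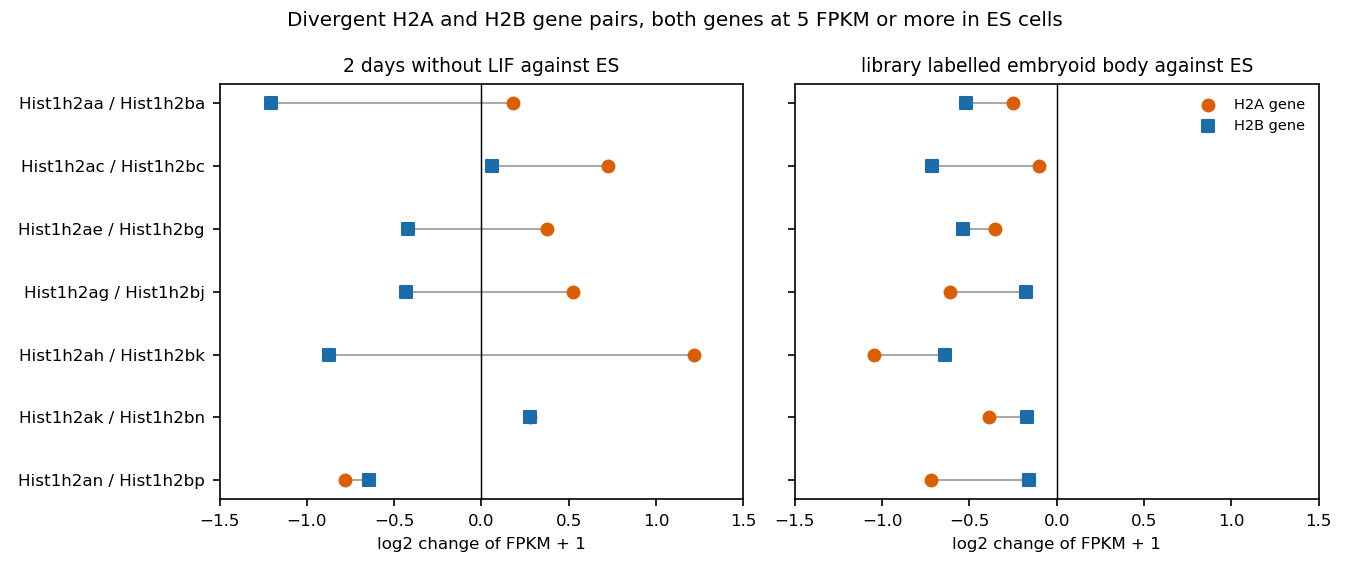
Log2 change of FPKM + 1 against ES cells of the H2A gene (orange circle) and the H2B gene (blue square) of 7 divergent pairs, joined by a line, for 2 days without LIF (left) and the library labelled embryoid body (right). On the left the circle lies right of the square in 5 pairs, most widely in Hist1h2ah and Hist1h2bk at 1.22 and -0.87, and on the right all points lie below 0.

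In the library labelled embryoid body, the summed FPKM of each class was lower than in both ES libraries, with H4 nearest to the ES level. The sum over all 65 genes was 8151 FPKM against 10380.2 and 10150.4 in the ES libraries, 0.794 times the ES mean, and 1.80% of the FPKM of protein-coding genes. H3 was at 0.705, H1 at 0.719, H2A at 0.744, H2B at 0.747 and H4 at 0.907 times the ES mean. H4 over genes with at least 50% unique words was at 1.01 times the ES mean. The ES pair is shared with the comparison above, so the 2 comparisons are not independent.

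No histone gene passed the limma test with the embryoid body label, in either direction. Among all tested genes 0.396% were called higher and 0.0% lower (the same shares as by the adjusted p alone), and 24 of the 64 histone genes were at an unadjusted p under 0.05, beside 27.7% of all genes. The lowest adjusted p was 0.130 (Hist2h4), and limma without the trend on expression also called 0. Of the 64 genes 47 lay below both ES libraries and 9 above both, beside 42.9% and 37.6% of all tested genes. None was at least 2-fold above both ES libraries and 1 was at least 2-fold below, against 1.63% and 0.734% of all genes. The median log2 difference was -0.42 over the histone genes and -0.01 over all tested genes. Fitted over protein-coding genes with no gene on the opposite strand, the test called 2 lower, Hist1h4i and Hist2h3c1, against 0.718% of the genes in that fit.

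Several abundant genes of H1, H2A, H2B and H3 were below both ES libraries. Hist1h3g was at 144 FPKM against 245 and 244 in the ES libraries (0.587 times the ES mean) and Hist1h3d at 119.9 against 199 and 201 (0.599 times). Hist1h1b, H1.5, was at 245 against 408 and 379 FPKM, and Hist1h1d at 236 against 369 and 360.5. Each of these lay well outside its ES pair. In H2A and H2B, Hist1h2ak was at 314 FPKM (0.763 times the ES mean), Hist2h2bb at 899 (0.830 times), Hist1h2bg at 266 (0.687 times), Hist1h2bc at 66.1 (0.603 times) and Hist1h2bl at 121 (0.655 times). Hist1h2ah had the largest difference among H2A genes at 5 FPKM or more, with 14.8 FPKM and a log2 difference of -1.05 (SE 0.21, adjusted p = 0.178). Hist1h1e was the 1 linker histone gene above both ES libraries, at 109 against 98.1 and 80.8 FPKM.

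H4 genes went both ways with the embryoid body label. Hist1h4i was at 59.8 FPKM against 115 and 127 (log2 difference -1.0001, SE 0.09, adjusted p = 0.139), Hist1h4n at 156 against 255 and 294, and Hist1h4b at 273 against 405 and 558. Hist1h4h was above both ES libraries at 567 FPKM against 504 and 508, as were Hist1h4a at 348 against 308 and 303 and Hist1h4c at 176 against 156 and 82.6. Hist1h4d, the most abundant, was at 949 FPKM against 941 and 937, a log2 difference of 0.02 that became -0.0033 with libraries scaled without their 10 highest genes. Hist2h3c1 was listed at 0.00587 FPKM against 1.48 and 1.28, under the 0.0207 FPKM that a single fragment gives over its 1825 nt. It shares 34.7% of its 50-base words with 1 other gene, so its value is uncertain.

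Genes that work with the histone mRNAs varied less. Of 20 genes for the processing, binding and decay of histone mRNA, none was called by limma in either comparison (4 and 10 at an unadjusted p under 0.05, after LIF withdrawal and with the embryoid body label; for this list and the following ones the shares over all genes are 37.2% and 27.7%). Their sums were 707 and 710.5 FPKM in the ES libraries, 707 after LIF withdrawal and 711 with the embryoid body label. Slbp, the stem-loop binding protein, was at 67.5 and 68.0 FPKM, then 54.6 and 72.5, and Srrt, which links the cap complex to RNA processing and decay, was the most abundant at 153, 149, 164 and 171. Of 34 S-phase genes none was called (10 and 6 at an unadjusted p under 0.05), and their sum was 0.916 and 0.922 times the ES mean, with the ES libraries at 2573 and 2727 FPKM. Pcna, the sliding clamp of DNA polymerases, was at 284 and 305 FPKM, then 257 and 261, and Mcm7, of the replicative helicase, at 205 and 239.8, then 213 and 211. The median log2 difference of this list was -0.11 and -0.07 against 0.09 and -0.42 for the histone genes. Slbp and Mcm2 stand in 2 of the lists.

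Of 16 genes for histone chaperones and for the acetylation of new histones, none was called (4 and 3 at an unadjusted p under 0.05), and the sum was 0.926 and 0.929 times the ES mean. Nasp, a chaperone of H1 and H3, was at 400.4 and 398 FPKM, then 361 and 364, and Hat1, which acetylates new H4, at 213 and 223, then 213 and 232. The 12 genes listed as replication-independent histone variants summed to 0.791 and 0.867 times the ES mean. The ES libraries themselves were apart here at 1609.6 and 2072 FPKM, mostly through H2afz (545 and 987, then 502 and 487). H3f3b, which encodes the replacement histone H3.3, was at 469 and 503 FPKM, then 489.7 and 479.8. H3f3a, which also encodes H3.3, was at 228 and 232 FPKM, then 152 and 269 (log2 differences -0.59 and 0.23). None of the 12 was called in either comparison (5 and 4 at an unadjusted p under 0.05).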

How the data were processed

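Total RNA of 4 libraries was sequenced. The authors deposited FPKM per gene. Trimmomatic 0.36, STAR, Cufflinks and mm10 are named per the submitters' processing notes; the sources used here give neither their roles and options nor the annotation. The 4 columns match the 4 samples by name. FPKM of a short gene depends on the assumed fragment length, and FPKM splits or drops reads shared between copies.

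Identifiers were joined to GENCODE M21 without version (47219 of 47633 matched). Histone class sums are sums of FPKM. The 15676 genes that reached 1 FPKM in any library entered limma 3.58.1 (R 4.3.3, trend on expression) as log2(FPKM + 1), a scale that understates changes of low genes. Calls had to pass 0.05 after Benjamini-Hochberg adjustment and 1 on the log2 scale. All 4 libraries were in 1 model of 3 groups. P-values measure only the spread between the 2 ES libraries, which may be technical and which limma moderates for each gene over all genes in the fit. The steps were tested on simulated data. Python 3.11.15, numpy 2.4.6, pandas 2.3.3 and matplotlib 3.10.9 were used. Depth was read from the lowest common step of FPKM times length in single-transcript genes, taken as 1 fragment.

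The members and gene lists were chosen with earlier results of these data known. Named by rule were, in each class, the 3 highest genes in ES cells, the 2 largest differences each way where the higher side reached 5 FPKM, and called genes; in each list, called genes or the 2 most abundant. Other names were chosen after their values were seen. Alternatives were another pseudocount (0.1), other filters (none, 5 FPKM), protein-coding genes only, 2 other scalings, limma without the trend, each ES library left out, sums without the highest gene, and, chosen after seeing the data, only genes with no opposite-strand gene or with at least 50% unique 50-base words.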

Additional observations from a re-analysis of the deposited data

Results flagged for a closer look

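Each result here has the 2 derived libraries on opposite sides of both ES libraries; with 1 library a group, none of these differences was tested. The H3 sum was 1.44 times the ES mean after LIF withdrawal and 0.705 times with the embryoid body label. For H2A the ratios were 1.29 and 0.744, and for H1 1.20 and 0.719. Of the 54 genes that reach 5 FPKM in the ES mean, 20 lay above both ES libraries after LIF withdrawal and below both with the embryoid body label: 7 H3 genes, 8 H2A genes, 3 H1 genes, Hist2h2bb and Hist1h4n. The reverse was seen in 3 genes, all H4: Hist1h4d, Hist1h4h and Hist1h4a. Hist1h4d was at 1.01 times its ES mean with the embryoid body label. The share of all genes with either pattern is not given here, so these counts cannot be read as particular to histone genes. Taken singly, 48.4% of all tested genes lay above both ES libraries after LIF withdrawal and 42.9% below both with the embryoid body label. For the reverse the single shares were 36.6% and 37.6%.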

How the results depend on the processing

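No paired analysis was possible because the labels number only the ES libraries. After LIF withdrawal the 1 call (Hist1h2bl) became 7 over protein-coding genes only, 4 over protein-coding genes with no opposite-strand gene, 6 by the size rule and 11 to 11 without an ES library, where 1 library against 1 leaves no test and genes 1 apart on the log2 scale were counted. With the embryoid body label the 0 calls became 2, 1 by the size rule, and 1 to 8 without an ES library (8 without ES 1). For the counts without an ES library the share over all genes is not given here, so they cannot be read as particular to histone genes. The median log2 change after LIF withdrawal turned from 0.09 to -0.15 over genes with no opposite-strand gene and -0.13 over genes with at least 50% unique words. Log2 class sums moved as follows. Without the highest gene, H1 after LIF withdrawal was 0.41 and H2B -0.60; with the embryoid body label H2B was -0.53, H3 -0.46 and H4 -0.20. With no opposite-strand gene, H2B and H4 after LIF withdrawal were -0.60 and -0.32, and with the embryoid body label H2B, H3 and H4 -0.53, -0.56 and -0.061. Over genes with at least 50% unique words, H2A, H2B, H3 and H4 after LIF withdrawal were 0.67, -0.14, 0.37 and -0.45, and H4 with the embryoid body label turned from -0.14 to 0.021. Hist1h4d turned from 0.02 to -0.0033 with totals without the 10 highest genes. Fewer genes were tested in the restricted fits; other causes were not tested. The other 84 alternative values kept their direction. The lowest depth, 18.1 M fragments, limits genes under 1 FPKM most.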

Other observations

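Some replication-dependent histone genes also make spliced or polyadenylated mRNAs, as is known from differentiated cells. Of the 65, 15 had AATAAA, the usual poly(A) signal, in the last 60 nt of the annotated transcript, and 11 of these were at 5 FPKM or more in ES cells. The median of those 11 was 64.3 FPKM, against 169 for the 43 others at 5 FPKM or more. Their median log2 difference was -0.45 after LIF withdrawal and -0.26 with the embryoid body label, against 0.08 and -0.50 for the 43. The 11 hold no H3 gene, whereas 10 H3 genes are among the 43. The sets thus differ in histone class, and class was not separated from the poly(A) signal. The ranges of both sets overlap widely (-1.09 to 0.83 and -1.21 to 1.22 after LIF withdrawal), and no test was made. Of the H2B genes, 5 have a spliced transcript, of which Hist1h2bc (102 and 118 FPKM in ES cells, then 114 and 66.1), Hist1h2bp (74.2 and 57.6, then 41.5 and 58.5) and Hist1h2be (23.3 and 20.7, then 9.83 and 18.7) were at 5 FPKM or more.

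Genes known for expression in the testis were measured in all 4 libraries. Hist1h1t, the testis linker histone, was at 12.6 and 12.9 FPKM in the ES libraries, 13.8 after LIF withdrawal and 7.78 with the embryoid body label, and all its 50-base words are unique. Hist1h2aa and Hist1h2ba, a divergent pair 306 nt apart, were at 6.39 and 7.76, then 8.12 and 5.75 FPKM, and at 10.1 and 6.45, then 2.94 and 5.33 FPKM.

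Across the 54 genes at 5 FPKM or more, the log2 difference after LIF withdrawal had a Spearman rho of 0.19 with the GC content of the transcript, -0.14 with the share of unique words and 0.04 with the length of the model. With the embryoid body label the values were -0.14, 0.17 and 0.09. These are correlations across genes that share libraries, given as descriptions.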
